A study of Mus musculus with 6 samples.

Results

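The transcription factors Hnf4a, Hnf4g, Maf, Nr1h4, Pax2, Pax8, Lhx1 and Tfcp2l1 act in the epithelium of the nephron, the filtering and reabsorbing unit of the kidney. Their rows were found in the count table by matching each Ensembl gene ID to its symbol. All 8 genes matched, of 55401 gene IDs in the table, and all 8 passed the filter on low counts. Read counts of the 8 genes ran from 355 (Hnf4g) to 62902 (Hnf4a) in a library.

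RNA-seq libraries of whole kidney from mice labelled DKD, for diabetic kidney disease (3 libraries), were set against libraries from control mice (3 libraries). The study was made to follow histone methyltransferase genes in DKD, with Setdb2 and the podocyte in its title. The labels call DKD a genotype, and they give the tissue and a replicate number. The strain, the way diabetes was brought about, the age and any treatment of either group are not in the labels. Whether each library is a separate animal is not stated. The p-values set the difference between the groups against the spread among these 6 samples within their groups. Some of that spread may be technical, so the p-values may not extend to other mice.

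The proximal tubule takes back most of the glucose, amino acids and phosphate that the glomerulus filters, and the loop, distal tubule and collecting duct then adjust salt, water and acid. Hnf4a, a nuclear receptor that binds DNA as a homodimer, is needed for proximal tubule cells to mature in the mouse. Pax2, Pax8 and Lhx1 set up the nephron lineage in the embryo, and in the adult kidney they remain in parts of the tubule and collecting duct. Tfcp2l1 shapes the cell types of the collecting duct, and Nr1h4 is the bile acid receptor, also called FXR.

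Library totals were 71588579 to 77417638 counts in DKD kidneys and 64816622 to 72845799 counts in control kidneys. DKD replicate 1 stood apart from the other DKD libraries. On the first principal component it lay at -27.4, while DKD replicates 2 and 3 lay at 76.1 and 87.1, against -49.6 to -39.5 in control kidneys. On the second component it lay at -87.0, apart from all other libraries, DKD and control, which lay at 5.47 to 33.7. Transcripts of hepatocytes, the main cells of the liver, were at a summed 4364 CPM in DKD replicate 1 over 20 markers. The sum was 69.5 and 75.1 CPM in the other DKD libraries, against 109 to 145 CPM in control kidneys. CPM, the unit of normalised counts used here, is a gene's count relative to the size of its library, scaled by trimmed mean of M values (TMM) factors. Hnf4a and Nr1h4 are also expressed in liver, so results are given with and without this library, and the part of hepatocyte RNA in them was not tested. DKD replicate 1 was also the DKD library nearest to the controls on the first component. A fit without it may therefore differ in more than hepatocyte RNA.

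Across the 8 factors the DKD kidneys had lower Hnf4a, Nr1h4 and Maf and higher Pax2 and Tfcp2l1, each with no overlap between the groups, but no difference passed the test over all genes. The mean of Nr1h4 in DKD kidneys was 60.6% of the control mean and that of Hnf4a 63.5%, while those of Tfcp2l1 and Pax2 were 132% and 136% of it. The other 3 factors, Hnf4g, Pax8 and Lhx1, overlapped between the groups. In whole kidney RNA, fewer cells of a type and less RNA per cell cannot be told apart.

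The quasi-likelihood test of edgeR on all 6 libraries called 0 of 19197 genes at an adjusted p under 0.05 (0% of those tested), and hence 0 of the 8 factors. At an unadjusted p under 0.05 it had 3694 genes (19.2%) and 5 of the 8 factors, 2 higher and 3 lower in DKD. DESeq2 called 1749 genes (9.15%) and 4 of the factors, Hnf4a, Nr1h4, Maf and Tfcp2l1. Weighted limma-voom, in which each library has a quality weight, called 3397 genes (17.7%) and 6 factors, those 4 together with Hnf4g and Pax2. The weight of DKD replicate 1 was the lowest, at 0.302, against 0.502 to 2.07 in the other libraries. When DKD replicate 1 was left out, edgeR called 3101 genes (15.5%) and 4 factors, Hnf4a, Hnf4g, Nr1h4 and Pax2. Groups without overlap were found for 2 factors on the higher side, where 13.8% of all tested genes were such, and for 3 on the lower side, where 11.5% were. The median log2 difference of the 8 factors was -0.34, beside 0.022 over all tested genes.

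**Figure D1:**
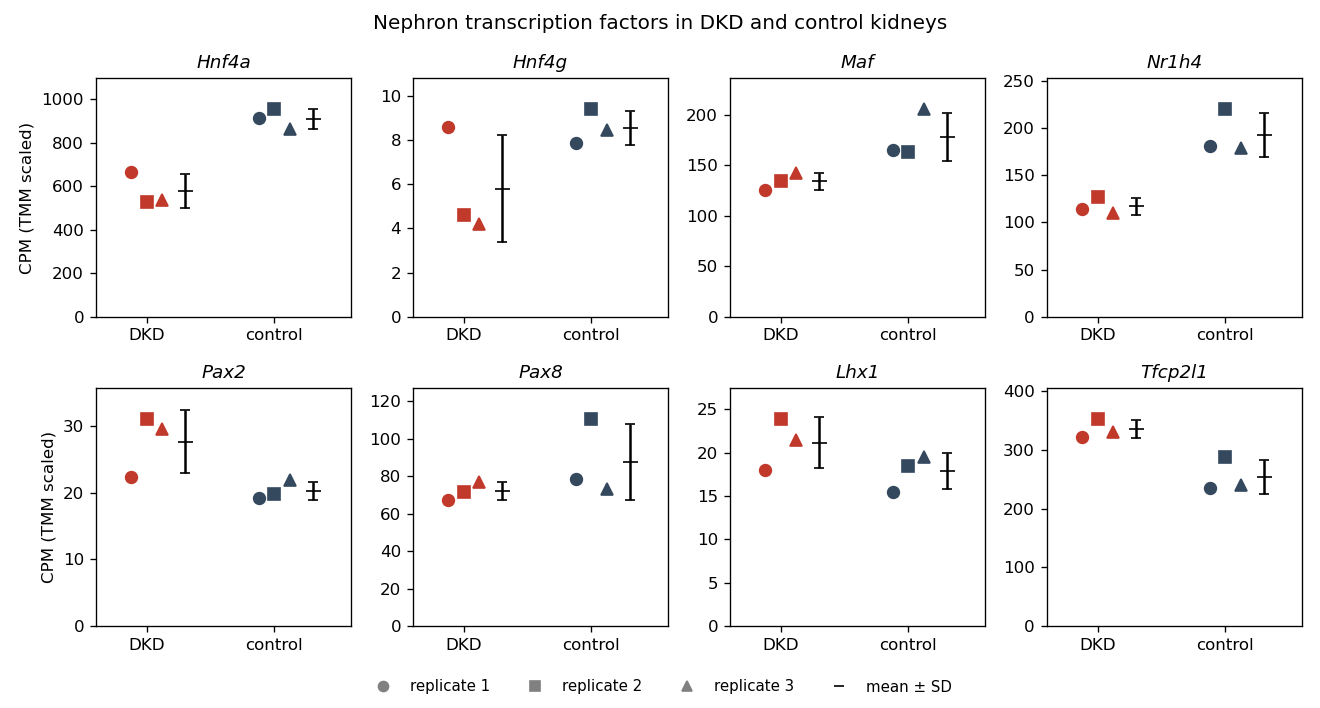
TMM-scaled CPM of each of the 8 transcription factors (vertical axes, each from 0) in DKD kidneys (red, left) and control kidneys (blue, right), with 1 point for each library, its shape giving the replicate number, and the mean ± SD beside it. Hnf4a, Maf and Nr1h4 lie lower in all 3 DKD libraries than in any control library, Pax2 and Tfcp2l1 lie higher, and the Hnf4g value of DKD replicate 1 lies among the controls.

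Promoters are shown for Hnf4a, Nr1h4 and Tfcp2l1, the 3 factors with the smallest p among those whose groups did not overlap and whose start sites are in the table used. They are RefSeq sequences of build GRCm38.p6, from 250 bases before to 50 bases after a transcription start, printed 5′ to 3′ along the gene. Capitals mark letters matching GTTAAT (a core letter run of a homeodomain site), AGGTCA (a core letter run of nuclear receptor sites) or TATAAA (the TATA box), searched on both strands. The mouse Hnf4a gene starts at an upstream promoter, called P2, and at a downstream one, called P1, which is the one mainly used in adult liver and kidney. The upstream Hnf4a window lies at chr2:163506607-163506906 on the plus strand and the downstream one at chr2:163546905-163547204 on the plus strand. The Nr1h4 window lies at chr10:89506609-89506908 on the minus strand and the Tfcp2l1 window at chr1:118627695-118627994 on the plus strand.
Hnf4a upstream promoter: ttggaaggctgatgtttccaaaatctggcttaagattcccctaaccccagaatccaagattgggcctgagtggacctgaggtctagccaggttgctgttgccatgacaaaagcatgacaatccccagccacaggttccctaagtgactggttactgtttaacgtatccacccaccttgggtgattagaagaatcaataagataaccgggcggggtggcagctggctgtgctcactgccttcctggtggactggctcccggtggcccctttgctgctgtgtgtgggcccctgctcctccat
Hnf4a downstream promoter: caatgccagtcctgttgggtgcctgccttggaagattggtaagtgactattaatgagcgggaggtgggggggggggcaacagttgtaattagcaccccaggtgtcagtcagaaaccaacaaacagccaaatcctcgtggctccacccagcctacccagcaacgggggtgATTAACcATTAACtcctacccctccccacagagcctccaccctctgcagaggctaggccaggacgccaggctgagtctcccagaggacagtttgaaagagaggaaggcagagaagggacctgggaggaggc
Nr1h4 promoter: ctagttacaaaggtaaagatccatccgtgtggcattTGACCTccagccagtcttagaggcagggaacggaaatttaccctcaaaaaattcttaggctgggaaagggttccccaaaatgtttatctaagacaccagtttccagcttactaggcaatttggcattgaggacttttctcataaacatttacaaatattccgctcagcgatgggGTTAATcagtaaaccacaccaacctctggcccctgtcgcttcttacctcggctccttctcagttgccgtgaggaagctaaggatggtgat
Tfcp2l1 promoter: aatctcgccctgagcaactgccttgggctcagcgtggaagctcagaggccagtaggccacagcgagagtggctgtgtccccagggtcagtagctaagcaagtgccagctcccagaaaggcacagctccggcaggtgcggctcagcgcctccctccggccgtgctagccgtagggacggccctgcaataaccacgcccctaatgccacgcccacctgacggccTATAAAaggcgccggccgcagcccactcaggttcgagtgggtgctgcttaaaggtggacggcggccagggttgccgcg

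The downstream Hnf4a window held GTTAAT on the reverse strand at 2 places, 81 and 74 bases before the start, which do not overlap. The last bases of this window were not found in an annotated transcript of Hnf4a, so these distances rest on the RefSeq start alone. For the other windows shown, the last bases were found in a transcript of the same gene. No match lay in the upstream window. Nr1h4 had GTTAAT on its own strand 40 bases before the start and AGGTCA on the reverse strand 214 bases before it. Tfcp2l1 had TATAAA 28 bases before the start. Of 32851 RefSeq mouse promoters of 300 bases, GTTAAT stood in 7.1%, AGGTCA in 16.3% and TATAAA in 13.6%, which is the background for these matches. In all, 6 of the 8 factors had 9 windows in the table, and those of Pax2, Pax8 and Lhx1 held none of these letters. Hnf4g and Maf have no entry. Counts per gene do not tell transcripts of the separate Hnf4a promoters apart.

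Hnf4a, on mouse chromosome 2, had 666, 529 and 538 CPM in DKD replicates 1 to 3, against 914, 952 and 863 CPM in the control replicates. All DKD values lay below all control values, and DKD replicate 1 was the nearest to the controls. The means were 578 ± 77.0 CPM in DKD kidneys and 910 ± 44.8 CPM in control kidneys (SD, n = 3 each). The log2 difference of DKD over control was -0.66 ± 0.13 (SE), with an adjusted p of 0.104 in edgeR. Without DKD replicate 1 it was -0.78 ± 0.10, with an adjusted p of 0.00447. Hnf4aos, an antisense gene at the same locus whose exons do not overlap those of Hnf4a, and chosen after its values were seen, was at 8.66, 9.44 and 4.67 CPM in DKD kidneys, against 14.1, 6.39 and 7.57 CPM in control kidneys.

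Hnf4g, on chromosome 3, encodes a close relative of Hnf4a that binds similar DNA sites. It had 8.58, 4.60 and 4.19 CPM in DKD replicates 1 to 3, against 7.85, 9.39 and 8.46 CPM in control kidneys. DKD replicate 1 lay among the controls, while the other DKD libraries lay below all of them. The log2 difference was -0.56 ± 0.29, with an adjusted p of 0.330 in edgeR over all 6 libraries. Leaving out DKD replicate 1 gave -0.97 ± 0.18 and an adjusted p of 0.0151 in edgeR. Leaving out DKD replicate 3 instead gave -0.38 ± 0.29, with an adjusted p of 0.661. The Hnf4g value therefore rested on single libraries more than that of Hnf4a did, whose difference was between -0.78 and -0.60 with any 1 library left out.

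Nr1h4, on chromosome 10, is expressed in proximal tubule cells besides the liver and intestine. It had 114, 127 and 110 CPM in DKD kidneys, against 181, 220 and 178 CPM in control kidneys. The groups were well apart, and DKD replicate 1 lay between the other DKD libraries. The means were 117 ± 9.34 CPM in DKD kidneys and 193 ± 23.1 CPM in control kidneys (SD, n = 3 each). The log2 difference was -0.72 ± 0.12, with an adjusted p of 0.103 in edgeR, and -0.71 ± 0.13 without DKD replicate 1, with an adjusted p of 0.0154. The unadjusted edgeR p of Nr1h4 rose, from 0.000501 over all 6 libraries to 0.000968 without DKD replicate 1. Its adjusted p was nevertheless lower, in a fit that called 3101 genes. DESeq2 gave -0.73 with an adjusted p of 1.1e-05.

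Maf, on chromosome 8, encodes a large leucine zipper factor that is found in proximal tubule cells and also in macrophages. It had 126, 135 and 142 CPM in DKD kidneys, against 165, 164 and 205 CPM in control kidneys. All DKD values were the lower ones, and control replicate 3 was the highest. Maf differed by -0.41 ± 0.12 on the log2 scale, with an adjusted p of 0.162 in edgeR. Without DKD replicate 1 the difference was -0.37 ± 0.13, with an adjusted p of 0.0987 in edgeR. The unadjusted edgeR p of Maf rose, from 0.0121 over all libraries to 0.0231 without DKD replicate 1, so the lower adjusted p is no stronger difference of Maf itself. With library size alone in place of TMM factors, the groups overlapped, at 124, 145 and 157 CPM in DKD kidneys against 151, 157 and 200 CPM in control kidneys. That scaling moved the median of all genes by 0.15 on the log2 scale towards higher values in DKD, and 4.8% of all genes were then lower without overlap. The log2 difference of Maf was -0.26 ± 0.14 with that scaling.

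**Figure D2:**
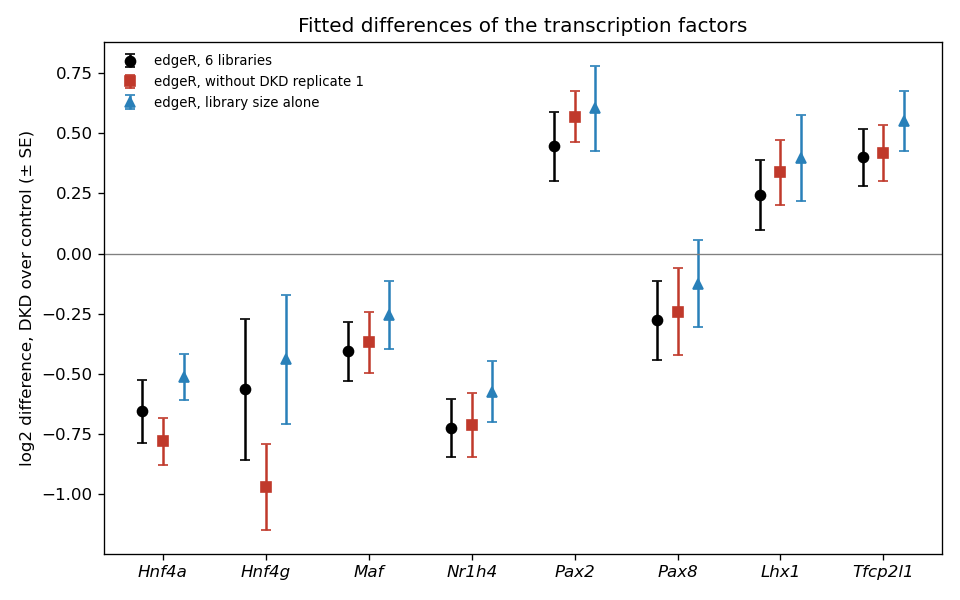
Fitted log2 difference of DKD over control (vertical axis) with its SE for each of the 8 transcription factors, from edgeR on 6 libraries with TMM factors (black), without DKD replicate 1 (red) and with library size alone (blue). The sign was the same in the 3 fits for every factor, and Hnf4g moved the most when DKD replicate 1 was left out, to -0.97 against -0.56.

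Pax2, on chromosome 19, is a paired box factor that in the adult mouse kidney remains mainly in the medulla and collecting duct. It had 22.4, 31.1 and 29.6 CPM in DKD kidneys, against 19.3, 19.8 and 21.8 CPM in control kidneys. The DKD values were all above the control values, with DKD replicate 1 only slightly above control replicate 3. The means were 27.7 ± 4.66 CPM in DKD kidneys and 20.3 ± 1.35 CPM in control kidneys (SD, n = 3 each). The log2 difference was 0.45 ± 0.14, with an adjusted p of 0.175 in edgeR. Without DKD replicate 1 it was 0.57 ± 0.10, with an adjusted p of 0.0151.

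Pax8, on chromosome 2, is the paralog of Pax2 that stays on in tubule epithelium more widely. It had 67.5, 71.7 and 77.2 CPM in DKD kidneys, against 78.5, 111 and 73.1 CPM in control kidneys. The groups overlapped, since DKD replicate 3 lay above control replicate 3. Pax8 differed by -0.28 ± 0.16 on the log2 scale, with an adjusted p of 0.389 in edgeR. Without DKD replicate 1 the difference was -0.24 ± 0.18, with an adjusted p of 0.423 in edgeR. It was -0.074 ± 0.11 without control replicate 2, the library with the highest value. Gm13415, a gene on the other strand that was also chosen after its values were seen, overlaps exons of Pax8, but it was at no more than 0.545 CPM in any library.

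Lhx1, on chromosome 11, encodes a LIM homeobox factor needed to form the nephron and the female reproductive tract. It had 18.0, 23.9 and 21.5 CPM in DKD kidneys, against 15.5, 18.5 and 19.5 CPM in control kidneys. DKD replicate 1 lay below control replicates 2 and 3, and the other DKD libraries lay above all controls. Its log2 difference was 0.24 ± 0.15, with an adjusted p of 0.393 in edgeR. When each library was left out in turn, it ranged from 0.15, without DKD replicate 2 or control replicate 1, to 0.34, without DKD replicate 1. That last fit gave 0.34 ± 0.14, with an adjusted p of 0.142 in edgeR.

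Tfcp2l1, on chromosome 1, encodes a grainyhead-related factor of the collecting duct. It had 323, 353 and 332 CPM in DKD kidneys, against 235, 288 and 241 CPM in control kidneys. The lowest DKD library lay above the highest control library, and DKD replicate 1 was close to DKD replicate 3. The means were 336 ± 15.7 CPM in DKD kidneys and 255 ± 29.1 CPM in control kidneys (SD, n = 3 each). The log2 difference was 0.40 ± 0.12, with an adjusted p of 0.157 in edgeR, and 0.42 ± 0.12 without DKD replicate 1, with an adjusted p of 0.0540. DESeq2 gave 0.39 with an adjusted p of 0.0236.

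The place of DKD replicate 1 differed from factor to factor. Set against the control mean on the log2 scale, it was at -0.76 for Nr1h4, -0.49 for Maf and 0.35 for Tfcp2l1, near the other DKD libraries. Those lay at -0.59 and -0.81 for Nr1h4, at -0.39 and -0.31 for Maf, and at 0.48 and 0.39 for Tfcp2l1. For Hnf4g, Lhx1 and Pax2 the same library was at 0.0067, 0.021 and 0.14, nearer to the controls. DKD replicates 2 and 3 were at -0.89 and -1.02 for Hnf4g, at 0.43 and 0.27 for Lhx1, and at 0.61 and 0.54 for Pax2.

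The level of each factor per kilobase of exon was ordered in the same way in both groups. The order ran from Hnf4a through Nr1h4, Tfcp2l1, Maf, Pax8, Lhx1 and Pax2 to Hnf4g. Hnf4a averaged 120 ± 16.0 CPM per kb in DKD kidneys and 188 ± 9.28 CPM per kb in control kidneys (SD, n = 3 each). Nr1h4 averaged 50.8 ± 4.05 CPM per kb in DKD kidneys and 83.8 ± 10.0 CPM per kb in control kidneys. Tfcp2l1 averaged 35.6 ± 1.67 CPM per kb in DKD kidneys and 27.0 ± 3.08 CPM per kb in control kidneys. At the low end, Hnf4g averaged 2.20 ± 0.922 CPM per kb in DKD kidneys and 3.26 ± 0.294 CPM per kb in control kidneys. In DKD kidneys, Lhx1 and Pax2 were the neighbours in this order whose libraries overlapped. In control kidneys the overlapping neighbours were Tfcp2l1 and Maf, Lhx1 and Pax2, and Pax2 and Hnf4g. Within each control library Tfcp2l1 was above Maf, most narrowly in control replicate 3 at 25.6 and 24.9 CPM per kb, and the overlap came from different libraries.

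A ratio within a library does not depend on the scaling between libraries, and 9 such ratios were compared by an exact two-sided permutation test over libraries. With 3 libraries in each group the smallest p it allows is 0.1, so no ratio could pass the threshold. The log2 ratio of Pax2 to Pax8 was -1.59, -1.20 and -1.38 in DKD kidneys, against -2.02, -2.48 and -1.74 in control kidneys. The DKD values were all higher, by 0.69 in the mean (exact permutation p = 0.1, Benjamini-Hochberg adjusted p = 0.3 over the 9 ratios). The ratio of Hnf4a to Hnf4g overlapped between the groups, and its mean differed by -0.028 (exact permutation p = 0.9).

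All factors but Lhx1 were also set against the mean log2 CPM of genes of a nephron segment. Pax8 stays on in the tubule more widely, and it was set against the loop, distal and collecting duct list alone. That list was itself mostly higher in DKD kidneys, with a median log2 difference of 0.23. Hnf4a relative to 34 proximal tubule genes was at 0.31, 0.36 and 0.36 in DKD kidneys, against 0.55, 0.78 and 0.63 in control kidneys. All DKD values of this ratio were lower, by 0.31 in the mean (exact permutation p = 0.1, adjusted p = 0.3), and DKD replicate 1 was next to the other DKD libraries. Pax8 relative to 28 loop, distal and collecting duct genes was at -0.057, -0.12 and 0.056 in DKD kidneys, against 0.23, 0.80 and 0.27 in control kidneys. The DKD values were again all lower, by 0.47 in the mean (exact permutation p = 0.1, adjusted p = 0.3). The other ratios overlapped between the groups: Nr1h4, Hnf4g and Maf relative to proximal tubule genes differed by -0.37, -0.28 and -0.050, and Pax2 and Tfcp2l1 relative to distal genes by 0.22 and 0.19. Single libraries carried much of these ratios. Hnf4g was at -0.48 without DKD replicate 1, -0.15 without DKD replicate 3 and -0.19 without control replicate 2, and Nr1h4 at -0.23 without DKD replicate 1 and -0.24 without control replicate 2. Without control replicate 1, Pax2 was at 0.14 and Tfcp2l1 at 0.096, and without control replicate 2 Pax8 was at -0.29. Maf relative to proximal tubule genes was above 0 without DKD replicate 1 (0.12) or control replicate 3 (0.084).

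**Figure D3:**
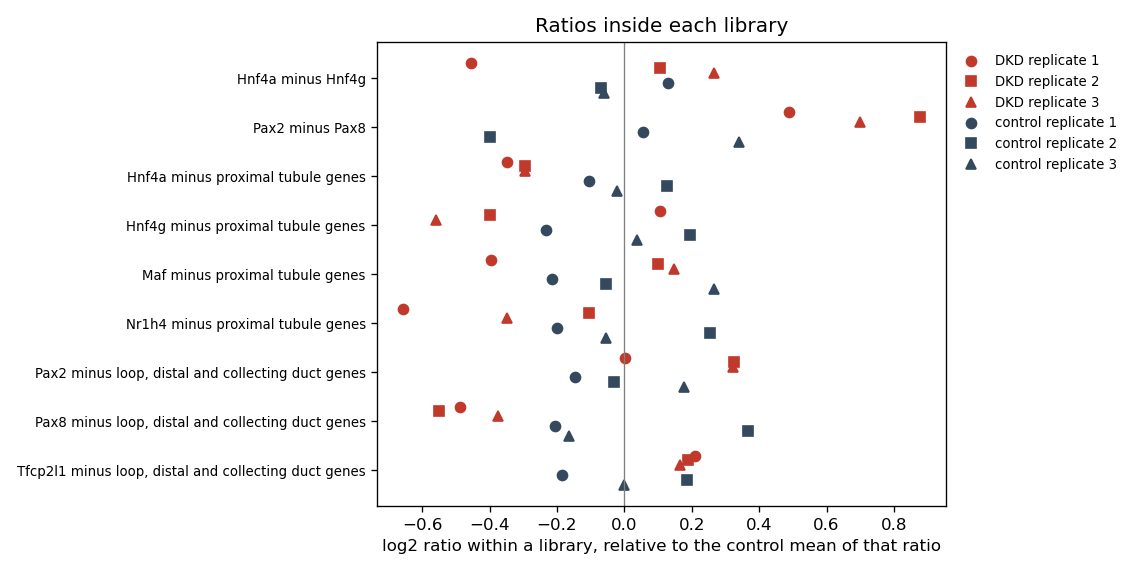
Log2 ratios inside each library, set against the control mean of the same ratio (horizontal axis), for 9 ratios of a transcription factor to another or to the mean of a segment's genes. DKD libraries are red and control libraries blue, and the groups do not overlap for Pax2 to Pax8, for Hnf4a to proximal tubule genes and for Pax8 to loop, distal and collecting duct genes.

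Genes of the proximal tubule, where Hnf4a, Hnf4g, Maf and Nr1h4 act, were mostly lower in DKD kidneys. Of 34 genes, 25 had a fitted value below 0 and 9 above it, with a median of -0.38, while 52.4% of all tested genes were above 0. None passed the edgeR test over 6 libraries, 12 were lower at an unadjusted p under 0.05, and 10 were lower without overlap. Without DKD replicate 1, edgeR called 17 of the 34, all lower, DESeq2 called 7 and weighted limma-voom called 18. Among those with the smallest p were Lrp2 (megalin, the endocytic receptor, -0.69 ± 0.19), Miox (an inositol oxygenase, -0.84 ± 0.24) and Slc7a13 (an amino acid transporter, -0.75 ± 0.22). Relative to the control mean, the list stood at -0.10, -0.49 and -0.46 in DKD replicates 1 to 3, against -0.060 to 0.11 in control kidneys. Slc5a2, the glucose transporter SGLT2 and chosen after its values were seen, had 501, 227 and 238 CPM in DKD kidneys, against 503, 472 and 438 CPM in control kidneys.

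Of 28 loop, distal and collecting duct genes, 23 had a fitted value above 0 and 5 below it, with a median of 0.23. At an unadjusted p under 0.05, 10 were higher and 2 lower, and none passed the edgeR test, while edgeR without DKD replicate 1 called 8 higher and 3 lower. DESeq2 called 6 higher and 1 lower, and weighted limma-voom 9 higher and 3 lower. Among the 4 with the smallest p, Atp6v0d2 (0.62 ± 0.11) and Atp6v1b1 (0.44 ± 0.09) encode subunits of the proton pump of intercalated cells, and Oxgr1 (0.74 ± 0.17) their oxoglutarate receptor. Aqp4, a water channel of principal cells, lay the other way at -0.97 ± 0.24. The list level was 0.14, 0.29 and 0.22 in the DKD libraries, against -0.070 to 0.074 in the control libraries, so all DKD libraries were above all controls. Tfcp2l1 and Pax2 were higher in the same libraries.

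Of 30 other transcription factors of the nephron, 18 had a fitted value above 0 and 12 below it, with a median of 0.061, and 11 were higher and 2 lower at an unadjusted p under 0.05. That median was -0.021 without DKD replicate 1, 0.16 without DKD replicate 2, 0.15 without DKD replicate 3 and 0.14 without control replicate 1, so its sign rested on DKD replicate 1. The edgeR test on 6 libraries called none, edgeR without DKD replicate 1 called 7 higher and 4 lower, DESeq2 6 higher and 1 lower, and weighted limma-voom 9 higher and 2 lower. Mecom, a zinc finger factor, had 47.8, 58.0 and 55.1 CPM in DKD kidneys, against 31.7, 34.5 and 32.3 CPM in control kidneys (0.71 ± 0.10). Tfap2b, an AP-2 factor of the distal nephron, had 48.6, 43.0 and 42.0 CPM in DKD kidneys, against 27.3, 29.8 and 28.3 CPM in control kidneys (0.64 ± 0.09). Ehf (1.09 ± 0.22) and Elf5 (1.80 ± 0.40) are ETS factors of ductal epithelium, and both were higher in all 3 DKD libraries than in any control library. Each of these 4 had an adjusted p of 0.103 to 0.114 in edgeR.

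Of 14 factors of kidney development and repair, 11 passed the filter, 10 of them with a fitted value above 0, and their median was 0.91. At an unadjusted p under 0.05, 6 were higher, none passed the edgeR test, and DESeq2 and weighted limma-voom each called 2 and edgeR without DKD replicate 1 called 3, all of them higher. Sox4 had 11.8, 21.2 and 25.3 CPM in DKD kidneys, against 7.57, 7.63 and 9.43 CPM in control kidneys (1.24 ± 0.28). Wt1, which is also a podocyte factor, differed by 0.91 ± 0.21, and its groups did not overlap. Runx1 (1.62 ± 0.57) and Snai2 (0.96 ± 0.38) overlapped between the groups.

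Of 24 paralogs of the 8 factors, 14 passed the filter, 6 with a fitted value above 0 and 8 below it, and the median was -0.042 (from -0.11 to 0.022 with each library left out). None passed the edgeR test and 2 were higher at an unadjusted p under 0.05, of which Maff is described here. Of the paralogs, 2 were called higher by DESeq2, by weighted limma-voom and by edgeR with DKD replicate 1 left out. Maff, a small Maf protein, differed by 1.27 ± 0.43, with DKD replicate 1 among the controls, and Mafk (0.18 ± 0.11) and Lhx6 (0.90 ± 0.62) overlapped.

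Of 16 partners and cofactors, 8 had a fitted value above 0 and 8 below it, with a median of -0.012 (from -0.090 to 0.011 with each library left out), and 2 were higher and 2 lower at an unadjusted p under 0.05. The edgeR test called none, DESeq2 and weighted limma-voom each called 1 higher and 1 lower, and edgeR without DKD replicate 1 called 1 higher. Rxra, the partner with which Nr1h4 binds DNA, had 105, 103 and 96.1 CPM in DKD kidneys, against 116, 138 and 134 CPM in control kidneys (-0.35 ± 0.10). Rxrb, its paralog, differed by -0.26 ± 0.11, and neither Rxra nor Rxrb overlapped between the groups. Rxrg, the other RXR gene and named after its values were seen, was at 0.0787, 0.687 and 1.61 CPM in DKD kidneys, against 0.488, 0.439 and 0.183 CPM in control kidneys, and it overlapped (1.10 ± 0.94). Ldb1, the LIM-binding partner of Lhx1, differed by 0.19 ± 0.08, and Ssbp4, a protein that binds Ldb1, by 0.71 ± 0.19.

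Of 9 genes that Nr1h4 is known to activate in liver, intestine or kidney, 7 passed the filter, 3 with a fitted value above 0 and 4 below it, with a median of -0.0010 (from -0.016 to 0.23 with each library left out). None passed the edgeR test and 1 had an unadjusted p under 0.05, Sdc1, which encodes syndecan-1 (0.73 ± 0.16). DESeq2 and weighted limma-voom called 1 gene higher, and edgeR without DKD replicate 1 called 2 higher. Slc51a, a subunit of the basolateral bile acid exporter, had 140, 82.8 and 102 CPM in DKD kidneys, against 160, 125 and 101 CPM in control kidneys, and the groups overlapped. Nr0b2, the corepressor SHP, differed by 0.26 ± 0.25. Abcb4, a phospholipid exporter of the liver, had 4.45, 0.506 and 0.341 CPM in DKD replicates 1 to 3, against 0.167 to 0.874 CPM in control kidneys.

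**Figure D4:**
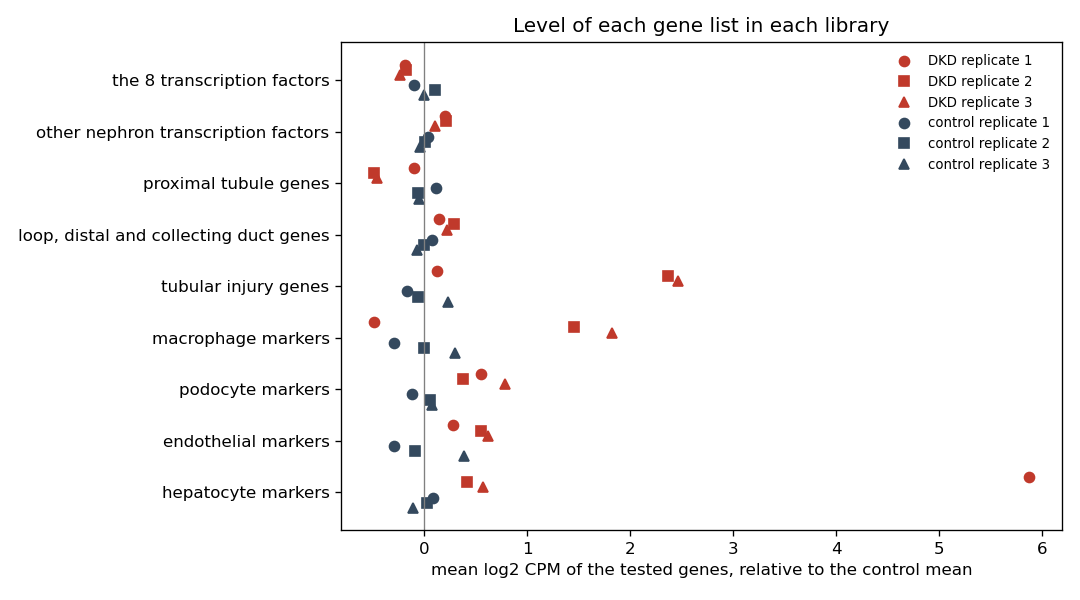
Mean log2 CPM of the tested genes of each list relative to the control mean (horizontal axis), for the 8 transcription factors and for the lists of segments, other factors and other cell types, with 1 point for each DKD library (red) and control library (blue). Tubular injury and macrophage genes are high in DKD replicates 2 and 3, at 2.37 and 2.47 and at 1.46 and 1.83, and hepatocyte markers are at 5.88 in DKD replicate 1.

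Markers of other cells and of tubular injury stood high in some of the same libraries, and their part in the differences above was not tested. All 14 tubular injury genes had a fitted value above 0, with a median of 1.65, and 11 had an unadjusted p under 0.05. Their summed level was 1411, 3157 and 3563 CPM in DKD kidneys, against 1021 to 1094 CPM in control kidneys. Krt7 (0.70 ± 0.12), Vim (1.10 ± 0.20), Prom1 (0.62 ± 0.14) and Krt18 (1.68 ± 0.38), genes of the cytoskeleton and cell surface, had the smallest p among them. No injury gene passed the edgeR test on 6 libraries, while DESeq2 called 11 higher, weighted limma-voom 8, and edgeR with DKD replicate 1 left out 12.

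Macrophage markers summed to 140, 252 and 316 CPM in DKD kidneys, against 134 to 159 CPM in control kidneys, and 14 of 14 had a fitted value above 0 (median 1.27). Maf, which macrophages also express, was lower in those libraries. Podocyte markers had 8 of 9 fitted values above 0 (median 0.64), endothelial markers 8 of 10 (median 0.36, and 0.22 without DKD replicate 3) and hepatocyte markers 12 of 12 tested (median 4.29, and 0.37 over 12 tested without DKD replicate 1). In the edgeR test none of these markers passed, and an unadjusted p under 0.05 was reached by 5 macrophage, 7 podocyte, 4 endothelial and 6 hepatocyte markers, all higher. With DKD replicate 1 left out, edgeR called 11 macrophage, 4 podocyte and 3 endothelial markers higher and 2 hepatocyte markers lower. DESeq2 called 4 macrophage, 6 podocyte and 2 endothelial markers, and weighted limma-voom 4, 5 and 3. In DKD replicate 1 none of the 20 hepatocyte markers was at 0, while 6 to 9 were at 0 in each of the other 5 libraries. Nr1h4 and Hnf4a were lower in DKD kidneys with DKD replicate 1 left out as well, by the values given above.

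Likeness of pattern was measured as the root mean square difference of log2 CPM, each gene centred on its own mean, over the 6 libraries and 11320 tested genes with a mean of at least 5 CPM. The genes most like Hnf4a were Coq5 (0.0495) and Aass (0.0522), and those most like Hnf4g were Pvalb (0.0511) and Chst11 (0.0578). Maf was nearest to E2f6 (0.0542) and Ipmk (0.0630), and Nr1h4 to Gm49542 (0.0902) and Clip4 (0.0980). Pax2 was nearest to Ifngr1 (0.0272) and Gramd1a (0.0392), and Pax8 to Ggnbp1 (0.0570) and Ccdc71l (0.0775). Lhx1 was nearest to Rab10os (0.0412) and Sec31b (0.0480), and Tfcp2l1 to Optn (0.0322) and Phf13 (0.0382). Aass, for example, had 573, 455 and 431 CPM in DKD kidneys, against 810, 804 and 773 CPM in control kidneys. Among the 28 pairs of the factors themselves, Pax2 and Lhx1 were the most alike (0.123) and Hnf4g and Pax2 the least (0.715), and Hnf4a and Nr1h4 were also close (0.161). All points share the same 6 libraries.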

How the data were processed

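Poly(A) RNA in 6 strand-marked libraries of whole mouse kidney was sequenced, per the labels' protocols. The authors deposited raw read counts per gene without normalization. The submitters' processing notes, per the labels, name fastp, HISAT2, StringTie, edgeR and build GRCm39. The sources used here give no version, order, annotation or strand setting, so reads of genes that overlap on opposite strands may not be told apart. No column of other samples was found.

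Counts were tested in R 4.3.3 with edgeR 4.0.16 (robust quasi-likelihood, two-sided, TMM factors, filterByExpr) on DKD against control, with Benjamini-Hochberg adjustment over 19197 genes and a threshold of 0.05. The edgeR test gives no SE, so the SE of a log2 difference was derived as its absolute value over the square root of the F statistic. A gene at 0 in a library could be present at up to 3 counts, 0.0353 to 0.0504 CPM, and this floor covers counting error only. Levels of lists and ratios are log2 CPM with a prior count of 2. Symbols (found for 55141 of 55401 IDs) and summed exon lengths come from GENCODE M21 (GRCm38), which is not the files' build. No pair of libraries agreed within sampling noise.

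The 8 factors and the 12 gene lists (222 entries, all matched) were chosen with earlier results of these data known. Named genes are the 8 factors, up to 4 genes of each list with the smallest p (for podocyte, endothelial, macrophage and hepatocyte markers, counts and levels only), and the 2 genes most like each factor. Others are marked as chosen after their values were seen. Some genes that the rule takes are not reported here. Alternative scalings were RLE, upper quartile and plain library size. Other alternatives were no filter, CPM of at least 1 in 3 libraries, limma-voom (limma 3.58.1) weighted by sample quality, DESeq2 1.42.0, a non-robust fit, leaving out the 50 most counted genes, each library left out in turn and the replicate number as a block. For ratios, a prior count of 0.5 and list medians were tried. The scripts were tested on simulated data.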

Additional observations from a re-analysis of the deposited data

How the results depend on the processing

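The difference of each of the 8 factors kept its direction under all 16 alternative fits. Genes called numbered 4 without the filter, 1749 with DESeq2 and 3397 with weighted limma-voom, beside 0 in edgeR. Of the 8 factors, DESeq2 called 4 and weighted limma-voom 6, and of the factors and listed genes together 53 and 72. With each library left out, edgeR called 0 to 3101 genes, 0 to 4 factors and 0 to 81 listed genes. The 3101 came without DKD replicate 1, while 7 genes were called without control replicate 1 and 1 without DKD replicate 3. The cause was not tested. The mean difference in the ratio of Hnf4a to Hnf4g (-0.028) ran from -0.17 to 0.19 with each library left out, and was above 0 without DKD replicate 1 (0.19) and without control replicate 1 (0.036). That of Maf to proximal tubule genes (-0.050) ran from -0.16 to 0.12, and was above 0 without DKD replicate 1 (0.12) and without control replicate 3 (0.084). With a replicate block, edgeR called 0 genes, and Hnf4a was at -0.66 ± 0.11 and Nr1h4 at -0.72 ± 0.08. Deviations of libraries with the same number correlated at 0.034, 0.023 and 0.034. With so few libraries these values cannot decide whether the numbers pair them. No pairing was found in the labels, and none was assumed in the main fit. Of the 8 factors, Hnf4g had the fewest counts, 355 to 654 in a library. The SE of its log2 difference in edgeR was 0.29 over all 6 libraries and 0.18 without DKD replicate 1.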
